A study of Homo sapiens with 4 samples.

Results

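A set of 10 genes of the YAP and TEAD programme were followed on 4 arrays of human embryoid bodies, and each gene is described on every array. The genes were ANKRD1, CCN1, CCN2, AXL, AMOTL2, LATS2, AJUBA, TEAD1, TEAD4 and YAP1, 10 of 18640 genes measured. The array reads each exon with small groups of probes called probesets, and a probeset was taken when its only annotated gene symbol was a member, which gave 122 of 218927 such probesets. CCN1, CCN2 and AJUBA were listed under their older symbols CYR61, CTGF and JUB. Embryoid bodies are aggregates in which embryonic stem cells start to differentiate. The source line was BG01V, embryonic stem cells of variant karyotype. Those of 1 group received 10 µM TBBD for 48 h, and those of the other received its vehicle, DMSO. Treatment fell as a rule between days 2 and 4 of aggregate formation. TBBD, also known as ellagic acid, is named in the series title as a blocker of methylation at arginine 17 of histone H3. Each group had 2 arrays, called replicate 1 and replicate 2 after the titles. No label says whether the replicates were separate cultures, so p-values here measure only the spread between these samples, which may be technical. All embryoid bodies stem from 1 cell line, and the RNA is that of whole aggregates.

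YAP1 encodes a transcriptional coactivator that binds no DNA itself and acts through the TEAD transcription factors. The Hippo kinases, among them LATS2, phosphorylate YAP and hold it in the cytoplasm. When cells spread or lose contact with neighbours, YAP enters the nucleus and raises genes such as CCN1, CCN2 and ANKRD1. Several targets, LATS2 and AMOTL2 among them, restrain YAP in turn. In human embryonic stem cells YAP and TEAD proteins are present and the pathway takes part in early lineage choice. YAP activity is set largely by where the protein lies, so transcript levels of YAP1 and the TEAD genes do not measure it.

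TEAD proteins bind the motif GGAATG, and the upstream sequences of CCN2 and ANKRD1 are shown because these are standard reporters of TEAD activity that behaved differently on the arrays. They are the 250 bases before the start site from RefSeq, build GRCh38.p14, written 5′ to 3′ on the gene's minus strand, with each GGAATG in capitals. The CCN2 sequence lies at chr6:131951373-131951622 and the ANKRD1 sequence at chr10:90921088-90921337.
CCN2: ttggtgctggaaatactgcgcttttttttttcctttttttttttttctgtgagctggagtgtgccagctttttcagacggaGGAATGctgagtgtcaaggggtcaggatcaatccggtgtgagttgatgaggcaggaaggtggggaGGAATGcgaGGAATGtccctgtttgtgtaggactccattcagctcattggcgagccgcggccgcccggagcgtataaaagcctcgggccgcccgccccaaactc
ANKRD1: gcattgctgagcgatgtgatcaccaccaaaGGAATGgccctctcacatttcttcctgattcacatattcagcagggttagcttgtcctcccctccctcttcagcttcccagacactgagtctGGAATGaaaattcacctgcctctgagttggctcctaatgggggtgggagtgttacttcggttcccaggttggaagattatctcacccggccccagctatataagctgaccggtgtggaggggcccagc

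The CCN2 sequence held 3 copies of GGAATG and the ANKRD1 sequence 2. Counted from the first transcribed base as 0, the copies began at -169, -104 and -95 in CCN2 and at -220 and -128 in ANKRD1. In windows of 300 bases, 250 before and 50 after each start, 4928 of 35116 RefSeq windows held the motif on either strand, or 14.03%. At least 2 copies stood in 1.37% of windows and at least 3 in 0.128%. RefSeq windows were at hand for 7 of the 10 genes. In each of these 7 genes at least 1 window held the motif, and 7 of their 10 windows did. Genes known as TEAD targets are apt to hold it, so this count describes the genes and is no test. The pattern TGANTCA, with any base at N, is looser than the AP-1 consensus, which has C or G there. It can share its first letters TG with the end of a GGAATG. It stood in 7.71% of all windows and in 1 of the 10, that of ANKRD1. The ANKRD1 match reads TGATTCA and so is not the AP-1 consensus. No array value bears on binding at these motifs.

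Values are log2 RMA signals averaged over a gene's probesets, so a difference of 1 is a doubling. Array medians over probesets lay between 6.39 and 6.42. No detection call was used here. Olfactory receptor genes, which these cells are not thought to use, had a median level of 5.396 and a highest gene mean of 6.30 over 348 genes, and the lowest value of any of the 10 genes on any array was 6.55. Of 14 pluripotency markers, 9 lay above that highest gene mean on every array, with LIN28A between 9.08 and 10.0 and POU5F1 between 6.60 and 7.75. LCK and PRDM14 lay below it on every array, and SOX2, GDF3 and L1TD1 on some. All gene tests are limma's two-sided moderated test, adjusted by Benjamini-Hochberg across all 18640 genes, with a threshold of 0.05. With 2 arrays against 2, an exact permutation test of a single gene cannot go below p = 0.333. In the fit between treatments, the spread within a group holds the gap between the numbers, for every gene. In the fit between numbers, the 2 arrays of a number are its DMSO and its TBBD array. Its SE and p-values therefore rest on the spread between treatments within a number. If a number marks 1 culture or batch, they do not measure how cultures vary.

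None of the 10 genes passed the test between TBBD and DMSO. Between replicate numbers, ANKRD1 and TEAD4 were called lower in replicate 2, against 2.02% of all genes. The TEAD4 call only just passed (adjusted p = 0.0499 in limma). It was lost without any 1 of the 4 arrays and in some other alternatives, among them the median over probesets. ANKRD1 stood apart in size, with a replicate 1 signal 2.93-fold that of replicate 2. CCN1 and CCN2, the best known secreted targets, were nearly level between treatments in replicate 1 and stood 1.36-fold and 1.35-fold higher with TBBD in replicate 2. YAP1 was the only member to lie higher on both replicate 2 arrays than on both replicate 1 arrays, against 25.1% of all genes. Its difference narrowly missed the threshold (adjusted p = 0.0506 in limma).

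**Figure D1:**
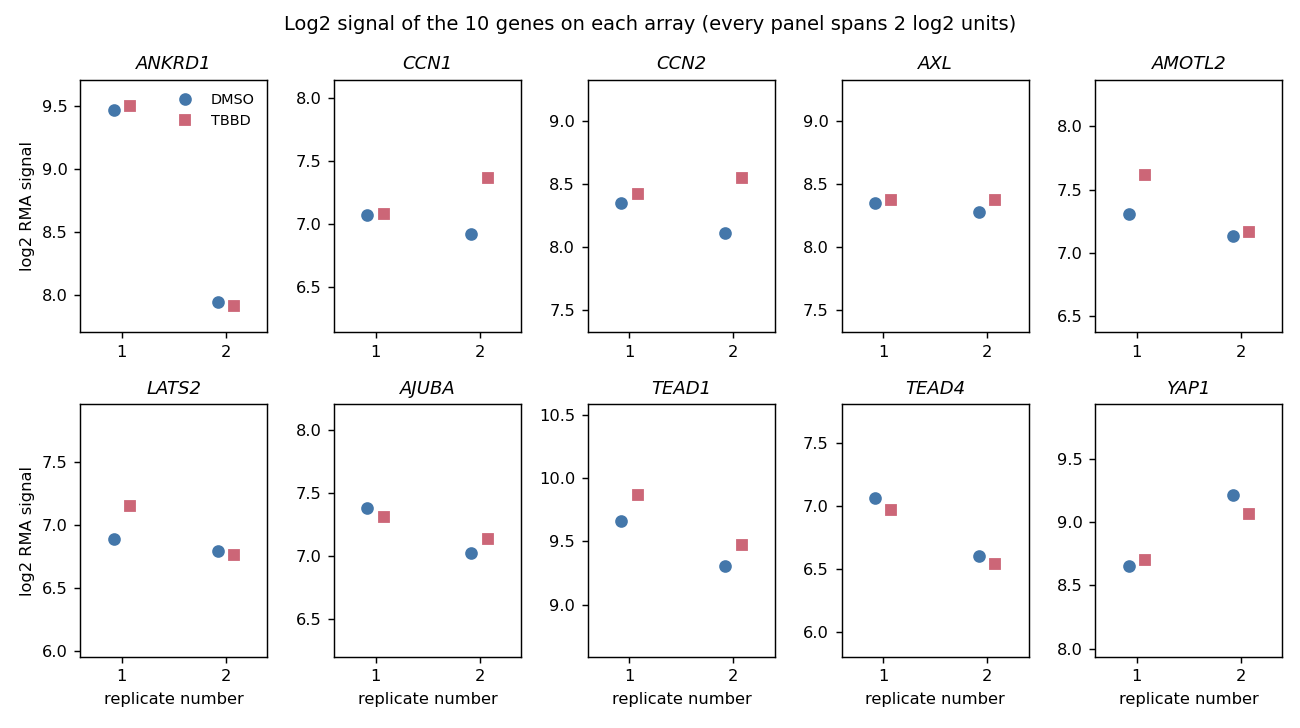
Log2 RMA signal of each of the 10 genes (vertical axis) by replicate number (horizontal axis), with DMSO arrays as circles and TBBD arrays as squares, 1 point an array. ANKRD1 falls by about the same amount under both treatments, to 7.94 and 7.92 in replicate 2, and CCN1 and CCN2 separate the treatments in replicate 2.

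ANKRD1, which encodes a nuclear ankyrin repeat protein of stretched muscle and other cells, had a log2 signal of 9.46 on DMSO replicate 1, 7.94 on DMSO replicate 2, 9.49 on TBBD replicate 1 and 7.92 on TBBD replicate 2. Both replicate 1 arrays were high and both replicate 2 arrays low, with no overlap, and the treatments overlapped fully. Replicate 2 was lower by 1.52 with DMSO and by 1.58 with TBBD on the log2 scale. The mean difference, replicate 2 minus replicate 1, was -1.55 ± 0.10 (SE), with an adjusted p of 0.00068 in limma, and only 7 of 18640 genes had a more negative one. RNA of whole aggregates was measured, so fewer cells of a type and less RNA per cell cannot be told apart here or below. TBBD minus DMSO was 0.030 in replicate 1 and -0.025 in replicate 2. The fitted treatment difference of 0.0025 had a 95% confidence interval from -1.80 to 1.81, since the spread within a group also holds the gap between the numbers.

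CCN1 and CCN2 encode secreted matricellular proteins that bind integrins. CCN1 had a signal of 7.07 on DMSO replicate 1, 6.92 on DMSO replicate 2, 7.07 on TBBD replicate 1 and 7.36 on TBBD replicate 2. TBBD replicate 2 was the high array, and the other 3 lay close together. TBBD minus DMSO was 0.0054 in replicate 1 and 0.44 in replicate 2, and the fitted difference was 0.22 (95% confidence interval -0.16 to 0.61; adjusted p = 1 in limma). It was 0.15 where probesets were summarised by their median, 0.15 without DMSO replicate 2, 0.37 without TBBD replicate 1 and 0.080 without TBBD replicate 2.

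CCN2 had a signal of 8.35 on DMSO replicate 1, 8.11 on DMSO replicate 2, 8.42 on TBBD replicate 1 and 8.55 on TBBD replicate 2. TBBD replicate 2 was again highest and DMSO replicate 2 lowest. TBBD minus DMSO was 0.068 in replicate 1 and 0.44 in replicate 2. The fitted difference was 0.25 (95% confidence interval -0.11 to 0.61; adjusted p = 1 in limma), with 0.41 where probesets were summarised by their median and 0.13 without DMSO replicate 2. A difference past 1.3-fold, a threshold chosen after these values were seen, was reached by TBBD in replicate 2 for these 2 members, with 2.98% of all genes past it. In replicate 1 no member reached it, with 2.78% of all genes past it. Each such value sets 1 array against 1, with no replicate check, and whether the treatment difference itself differs between the numbers was not tested, since 4 arrays leave no spread for that fit.

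AXL, a receptor tyrosine kinase for GAS6, hardly varied. Its signal was 8.35 on DMSO replicate 1, 8.28 on DMSO replicate 2, 8.37 on TBBD replicate 1 and 8.37 on TBBD replicate 2. DMSO replicate 2 was lowest, and the TBBD arrays lay just above both DMSO arrays. The fitted TBBD difference was 0.06 ± 0.11 (SE). The replicate 2 difference was -0.04 ± 0.10.

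AMOTL2 and LATS2 restrain YAP, and AJUBA acts upstream of it. AMOTL2, an angiomotin protein of cell junctions that holds YAP there, had a signal of 7.31 on DMSO replicate 1, 7.13 on DMSO replicate 2, 7.61 on TBBD replicate 1 and 7.16 on TBBD replicate 2. TBBD replicate 1 was the high array. Its TBBD minus DMSO was 0.30 in replicate 1 and 0.032 in replicate 2, and its replicate 2 difference was -0.32 ± 0.12 (SE; adjusted p = 0.206 in limma), or -0.16 without TBBD replicate 1.

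LATS2, the kinase that phosphorylates YAP, had a signal of 6.89 on DMSO replicate 1, 6.79 on DMSO replicate 2, 7.15 on TBBD replicate 1 and 6.76 on TBBD replicate 2. It was high on the same array as AMOTL2, with TBBD minus DMSO at 0.26 in replicate 1 and -0.028 in replicate 2. The replicate 2 difference was -0.24 ± 0.12 (SE; adjusted p = 0.302 in limma). It was -0.027 with the median over probesets, -0.37 without DMSO replicate 1 and -0.11 without TBBD replicate 1.

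AJUBA, a LIM protein that binds and restrains the LATS kinases at junctions, had a signal of 7.38 on DMSO replicate 1, 7.03 on DMSO replicate 2, 7.31 on TBBD replicate 1 and 7.13 on TBBD replicate 2. Both replicate 1 arrays lay above both replicate 2 arrays. Its replicate 2 difference was -0.26 ± 0.10 (SE; adjusted p = 0.199 in limma), and TBBD minus DMSO was -0.066 in replicate 1 and 0.11 in replicate 2.

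TEAD1 and TEAD4 encode 2 of the DNA-binding partners of YAP. TEAD1 had a signal of 9.66 on DMSO replicate 1, 9.31 on DMSO replicate 2, 9.86 on TBBD replicate 1 and 9.47 on TBBD replicate 2. It was lower in replicate 2 under each treatment, by a fitted -0.37 ± 0.12 (SE; adjusted p = 0.123 in limma). TBBD minus DMSO was 0.20 in replicate 1 and 0.16 in replicate 2.

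TEAD4 had a signal of 7.07 on DMSO replicate 1, 6.60 on DMSO replicate 2, 6.97 on TBBD replicate 1 and 6.55 on TBBD replicate 2. Replicate 2 was low under both treatments and the numbers did not overlap. The replicate 2 difference was -0.45 ± 0.10 (SE), and its adjusted p of 0.0499 in limma only just passed. The call was lost without any 1 of the 4 arrays, whether DMSO replicate 1, DMSO replicate 2, TBBD replicate 1 or TBBD replicate 2 (adjusted p between 0.0904 and 0.243). It was also lost where probesets were summarised by their median (adjusted p = 0.218), with an intensity trend (adjusted p = 0.0556) or the treatment as a second term (adjusted p = 0.0930). TBBD minus DMSO was -0.095 in replicate 1 and -0.060 in replicate 2, the only member lower with TBBD in both.

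YAP1 itself had a signal of 8.66 on DMSO replicate 1, 9.21 on DMSO replicate 2, 8.70 on TBBD replicate 1 and 9.07 on TBBD replicate 2. Both replicate 2 arrays were high, opposite to TEAD1 and TEAD4. The difference was 0.46 ± 0.10 (SE), a 1.37-fold higher mean in replicate 2, and narrowly missed the threshold (adjusted p = 0.0506 in limma). It passed among genes with at least 3 probesets and without the dimmer genes (adjusted p = 0.0370 in each). It did not pass with the median over probesets (adjusted p = 0.165), with the treatment as a second term (adjusted p = 0.0959) or without any 1 array (adjusted p between 0.107 and 0.208). TBBD minus DMSO was 0.048 in replicate 1 and -0.15 in replicate 2.

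Counted over the members and set beside all genes, the treatment gave no calls: in limma 0 of 10 members and 0.0% of genes passed, and 0 of 10 members and 0.746% of genes had an unadjusted p under 0.05. TBBD was higher in both numbers for CCN1, CCN2, AMOTL2, AXL and TEAD1, or 5 members, against 21.5% of genes. It was lower in both for TEAD4 alone, against 23.0% of genes. Both TBBD arrays lay above both DMSO arrays for CCN1, CCN2 and AXL, against 10.5% of genes. The narrowest such gap was that of CCN1, whose replicate 1 arrays differed by 0.0054. The members' median TBBD difference was 0.09, beside -0.0035 over all genes.

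Between the replicate numbers 2 of 10 members were called lower, against 2.02% of genes, and 0 were called higher, against 3.35%. An unadjusted p under 0.05 in limma was reached by 6 members, namely ANKRD1, AMOTL2, AJUBA, TEAD1, TEAD4 and YAP1, against 21.0% of genes. Both replicate 2 arrays lay below both replicate 1 arrays for 6 members, against 25.9% of genes, and above them for YAP1 only, against 25.1%. ANKRD1 alone was lower past 1.5-fold under both treatments, against 0.767% of genes. The members' median was -0.25, beside -0.0024 over all genes. The differences within DMSO and within TBBD share no array. They need not be independent, since no label says whether the arrays of a number share a culture.

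**Figure D2:**
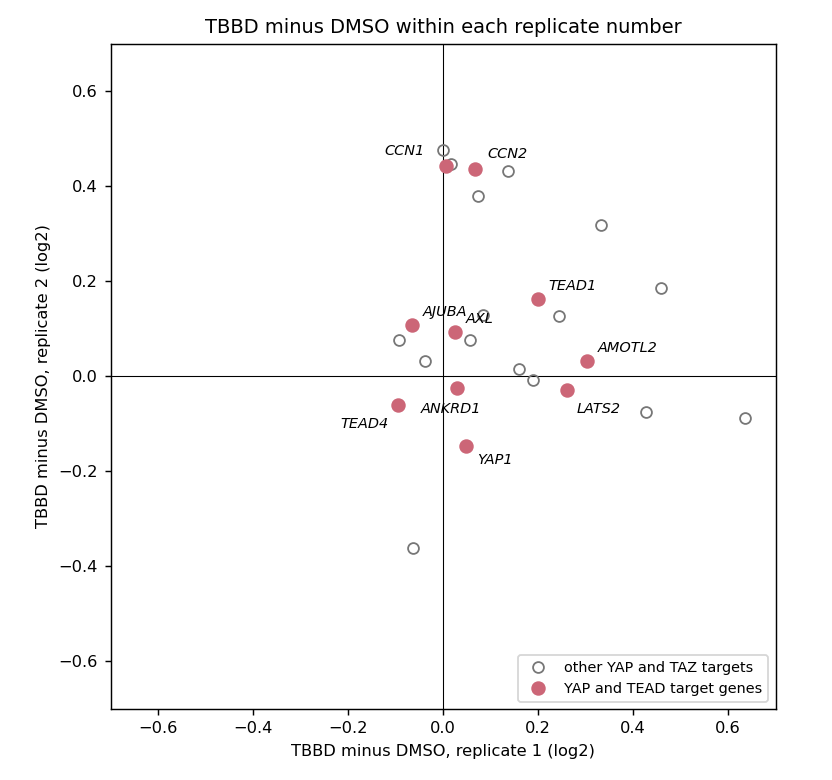
TBBD minus DMSO on the log2 scale in replicate 1 (horizontal) and replicate 2 (vertical), 1 point a gene, filled for the 10 genes and open for 16 other YAP and TAZ targets. CCN1 and CCN2 sit near 0 across and at 0.44 up, while AMOTL2 and LATS2 sit at 0.30 and 0.26 across and near 0 up.

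The probesets of a gene share its RNA and are not replicates, but they show how evenly a difference ran along the transcript. For ANKRD1 all 11 probesets were lower in replicate 2 under both treatments, from -2.02 to -0.32 with DMSO and from -2.24 to -0.70 with TBBD. The smallest of these differences came from the dimmest probeset, whose mean level of 5.66 lay near that of olfactory receptor genes. TEAD1 was lower in replicate 2 on all 14 probesets with DMSO and 13 with TBBD, and TEAD4 on 11 and 12 of 13. YAP1 was higher on 10 of 11 probesets under each treatment.

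CCN2 was less even. In replicate 2, 4 of its 8 probesets were higher with TBBD by 0.64 to 0.92, and the other 4 lay between -0.10 and 0.21, the brightest probeset at 0.17 among them. In replicate 1 its probesets ran from -0.11 to 0.25. CCN1 was higher with TBBD in replicate 2 on 10 of 11 probesets, 6 of them by over 0.5, and in replicate 1 on 7 of 11. The positions of these probesets within the transcripts were not used here, so unequal exons, probe effects and noise were not tested apart. AXL, with 22 probesets, had 10 higher and 12 lower in replicate 2 with DMSO and 12 higher and 10 lower with TBBD.

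**Figure D3:**
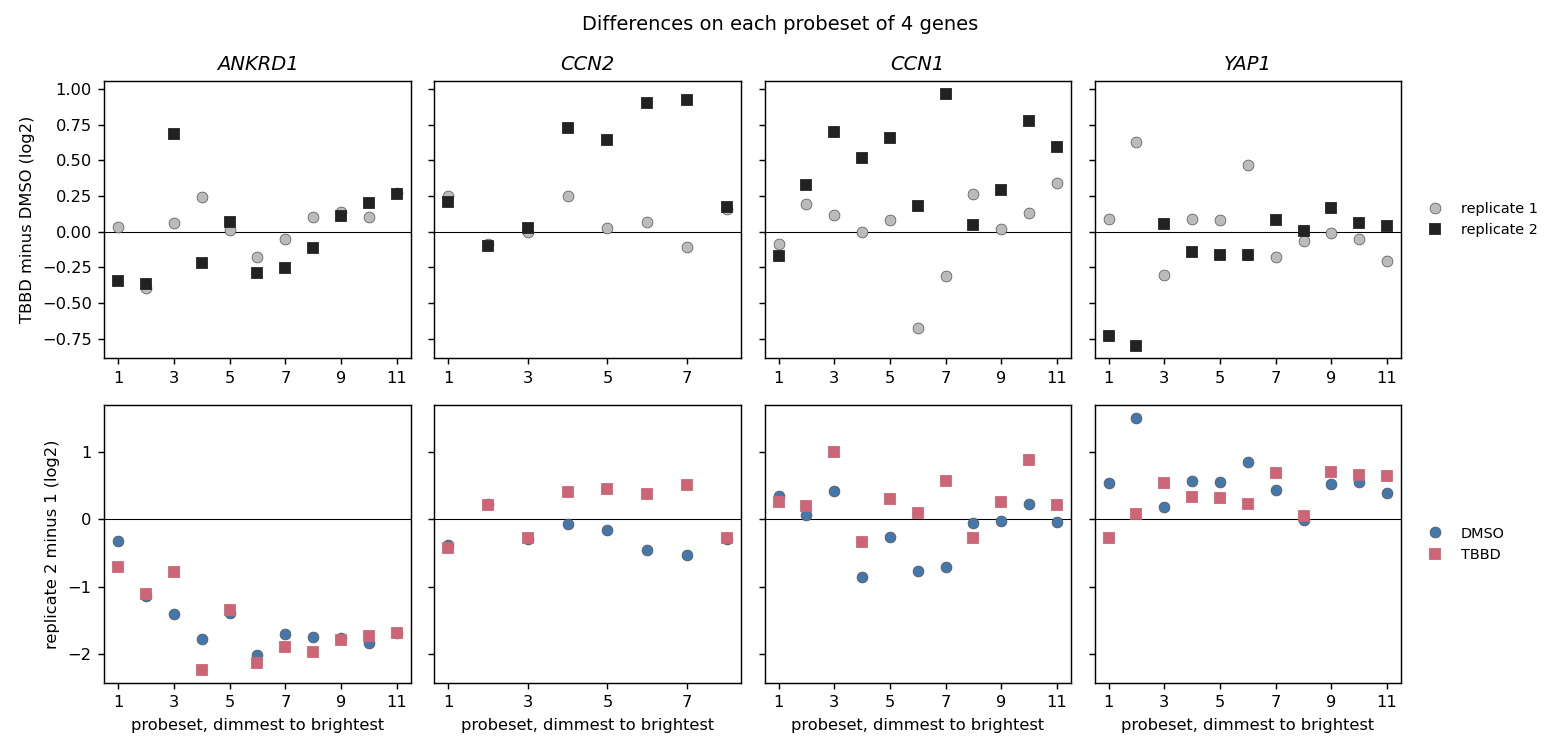
Log2 differences on each probeset of ANKRD1, CCN2, CCN1 and YAP1, ordered from dimmest to brightest: TBBD minus DMSO by replicate number above, replicate 2 minus replicate 1 by treatment below. All 11 ANKRD1 probesets lie below 0 in the lower row, and 4 of 8 CCN2 probesets stand at 0.64 or more in replicate 2 in the upper row.

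Other genes of the pathway did not share 1 direction. Of 16 further YAP and TAZ targets, 3 were called higher in replicate 2, against 3.35% of all genes, and 0 lower, against 2.02%. IGFBP3, a carrier of insulin-like growth factors, was higher by 1.76 ± 0.15 (SE), the ectonucleotidase NT5E by 0.86 ± 0.15 and the exchange factor ARHGEF17 by 0.46 ± 0.10. The list's median was 0.28, against -0.25 for the 10 genes, with 10 members higher and 6 lower, where 50.6% of all genes were lower. With TBBD, 13 of the 16 were higher and 3 lower, with a median of 0.18, where 48.8% of all genes were higher. In both numbers 10 were higher, against 21.5% of all genes. None was called, and none reached an unadjusted p under 0.05 in limma. The smallest p-values belonged to CCDC80, a matrix protein, at 0.32 ± 0.18 and FJX1 at 0.24 ± 0.18. NT5E, ARHGEF17 and FJX1 lay below 6.30, the highest mean of an olfactory receptor gene, on some arrays.

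Among 18 Hippo kinases and their partners, 1 was called higher in replicate 2, against 3.35% of all genes, and 0 lower, against 2.02%. The list's median was -0.03. The gene called was DCHS1, a giant cadherin, at 0.61 ± 0.13 (SE). FAT4, the cadherin it binds, stood at 0.47 ± 0.13 and the kinase TAOK2 at 0.25 ± 0.10, and neither passed. With TBBD 0 of 18 were called, the median was 0.02, and the smallest p-values were those of the kinase TAOK3 at 0.16 ± 0.12 and the scaffold SAV1 at -0.18 ± 0.17. Of 9 TEAD partners and regulators, 2 were called higher in replicate 2 and 0 lower, beside the same shares over all genes. The 2 called were VGLL1, a TEAD cofactor of trophoblast, at 0.87 ± 0.14, and the angiomotin gene AMOT at 0.55 ± 0.10. VGLL3 at 0.31 ± 0.13 did not pass. WWTR1, which encodes the YAP relative TAZ, stood at 0.13 ± 0.10. TEAD2 at 0.12 ± 0.12 and TEAD3 at 0.06 ± 0.10 did not pass and were not lower, unlike TEAD1 and TEAD4. With TBBD 0 of 9 were called, and TEAD2 stood at -0.18 ± 0.13 and VGLL2 at 0.16 ± 0.14. VGLL2 lay below 6.30, the highest mean of an olfactory receptor gene, on every array, and VGLL3 on some.

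Actin and SRF targets were listed because stretch and spreading act on them as on YAP. Of 12, ACTG2 was called lower in replicate 2, at -0.51 ± 0.10 (SE), and ACTA2 higher, at 1.22 ± 0.12. Over all genes 2.02% were called lower and 3.35% higher. CALD1 at -0.35 ± 0.10 did not pass. The list's median was -0.25, with 9 lower and 3 higher. With TBBD 0 were called, and SRF stood at -0.26 ± 0.19 and MYL9 at -0.14 ± 0.16.

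Cell type markers also differed between the replicate numbers, and their part in the values of the 10 genes was not tested. Mesenchyme and matrix markers were called higher in replicate 2 for 13 of 16, against 3.35% of all genes, and lower for 0, against 2.02%. Their mean log2 signal was 8.53 and 8.63 on the replicate 1 arrays, DMSO first, and 9.66 and 9.84 on the replicate 2 arrays. DCN was higher by 3.21 ± 0.19 (SE), COL3A1 by 2.16 ± 0.11 and COL1A2 by 1.61 ± 0.10. Hepatic and visceral endoderm markers were called higher for 7 of 11, against the same 3.35%. Their mean signals were 5.59 and 5.70 against 6.74 and 6.98. AFP was higher by 2.43 ± 0.15, FGA by 2.26 ± 0.17 and APOB by 2.23 ± 0.13.

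Endothelial markers were called higher in replicate 2 for 6 of 12, against 3.35% of all genes. Their mean signals were 6.03 and 6.03 against 6.60 and 6.85. PECAM1 was higher by 2.05 ± 0.18 (SE), KDR by 1.21 ± 0.16 and TIE1 by 0.78 ± 0.10. Pluripotency markers were called lower for 5 of 14, against 2.02% of all genes, and higher for 1, against 3.35%. Their mean signals were 7.70 and 7.48 against 7.41 and 7.18. ZFP42 was lower at -1.0 ± 0.11 and DNMT3B at -0.80 ± 0.12, and SOX2 was higher at 1.29 ± 0.20. Neural markers were called higher for 1 of 11, against the same 3.35%, namely MAP2 at 0.70 ± 0.10. NES at -0.35 ± 0.11 and ZIC1 at 0.42 ± 0.15 did not pass. RMA values have no 0, and on the replicate 1 arrays each of the 11 endoderm markers lay below 6.30, the highest mean of an olfactory receptor gene. Of the endothelial genes named here, TIE1 lay below it on every array and PECAM1 on both replicate 1 arrays.

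With TBBD, 0 genes of these 5 marker lists were called. The medians were -0.20 for pluripotency, 0.12 for mesenchyme, 0.14 for endoderm, 0.10 for endothelium and -0.08 for neural markers. Lower in both numbers were 8 of 14 pluripotency and 5 of 11 neural markers, against 23.0% of all genes. Higher in both were 12 of 16 mesenchyme, 6 of 11 endoderm and 4 of 12 endothelial markers, against 21.5%. The other way in both went 1 pluripotency, 2 neural and 0 of the other markers. These counts are a description only. As the SE of this fit holds the gap between the numbers, the smallest p-values favour genes with a small gap. For pluripotency they were those of GDF3 at -0.45 ± 0.14 (SE) and LIN28B at -0.31 ± 0.14. For mesenchyme they were those of TWIST1 at 0.30 ± 0.11 and PDGFRA at 0.24 ± 0.23. Endoderm had ALB at 0.11 ± 0.12 and APOA1 at 0.14 ± 0.29, and endothelium CDH5 at 0.40 ± 0.40 and ESAM at 0.38 ± 0.33. Within the numbers, replicate 1 first, APOA1 stood at 0.31 and -0.033, CDH5 at 0.35 and 0.45, and ESAM at 0.27 and 0.49. The neural list had SOX1 at 0.43 ± 0.15 and ZIC1 at -0.28 ± 0.22. Of these genes, ALB, SOX1 and ZIC1 lay below 6.30, the highest mean of an olfactory receptor gene, on every array. GDF3, APOA1, CDH5 and ESAM did on some arrays.

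**Figure D4:**
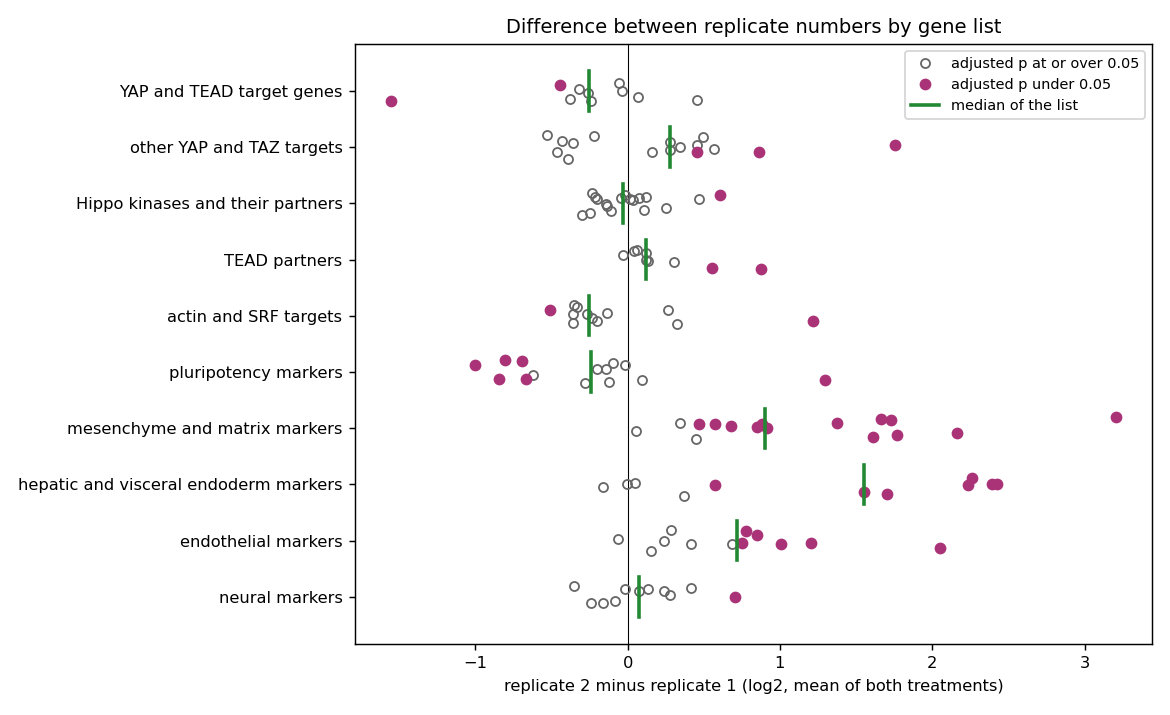
Replicate 2 minus replicate 1 on the log2 scale (horizontal axis), 1 point a gene, by gene list, filled where limma's adjusted p was under 0.05, with a bar at each list's median. The 10 YAP and TEAD genes have a median of -0.25, the 16 other YAP and TAZ targets one of 0.28.

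Genes with the most similar profile were sought among the other 16818 genes with at least 3 probesets, by the root mean square distance between log2 values centred on each gene's own mean over the 4 arrays. Nearest to ANKRD1 were the fibrillin gene FBN2 at a distance of 0.070, GLIPR2 at 0.092 and the amino acid transporter gene SLC7A5 at 0.10. For FBN2, replicate 2 minus replicate 1 was -1.33 with DMSO and -1.55 with TBBD. Nearest to CCN2 were ULBP1 at 0.018, ANKRD2 at 0.020 and PLA2G2F at 0.022. ANKRD2 and PLA2G2F had signals between 5.11 and 5.84, and ULBP1 between 5.84 and 6.27. All lay below 6.30, the highest mean of an olfactory receptor gene. Nearest to YAP1 were LRMDA at 0.022, SEC24B, of the COPII coat, at 0.022 and MGST2 at 0.025. LRMDA, with signals between 5.69 and 6.21, also lay below 6.30 on every array, and MGST2 on some. With 4 arrays and this many genes, near profiles are common, and the lists are a description only.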

How the data were processed

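Per the labels, the 4 samples were hybridised to Affymetrix Human Gene 1.0 ST arrays. The authors used RMA, per the submitters' processing notes, and the deposited values are log2 signals per probeset, a scale read from the values. No RMA setting or genome build was found in the labels. The number of arrays limits the precision. Of 247312 probesets, 277 with a placeholder cell were left out, none of them a member's. Older symbols were updated through a RefSeq table (GRCh38.p14). Probesets with 1 symbol were averaged per gene.

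Groups and numbers came from the titles. limma 3.58.1 in R 4.3.3 fitted all 18640 genes with group, or replicate number, as the only term. The treatment fit was checked on simulated data of independent arrays with no gap between numbers, unlike these arrays. The fit between numbers was not checked so. Tables and plots used Python 3.11.15, pandas 2.3.3 and matplotlib 3.10.9. Members and lists were chosen with earlier results of these data known. Named beyond the members were, per list, the 3 genes with the smallest p between numbers and the 2 between treatments. Also named were the 3 nearest profiles of CCN2, ANKRD1 and YAP1 and, chosen after their values were seen, LIN28A, POU5F1, TEAD3 and WWTR1. TDGF1 and HNF4A are not analysed here. Alternatives were other normalizations, summaries, filters, variance models and designs, and each array left out.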

Additional observations from a re-analysis of the deposited data

How the results depend on the processing

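The call of ANKRD1 lower in replicate 2 held in every alternative fitted per gene, with differences from -2.07 to -1.54. No member was called between treatments in any of them, and limma called 0 genes in all, single probesets included, against 139 at an unadjusted p under 0.05. The replicate number as a block also gave 0 genes. Deviations of same-number arrays from their group means correlated at 0.566 across genes, but with 2 pairs the labels alone would settle a pairing, and they do not. Between numbers 1001 genes were called, 653 with the treatment as a second term (the replicate block fit), 0 on single probesets, 3908 at an unadjusted p under 0.05, and 368 to 685 with 1 array left out, with 436 without DMSO replicate 1, 534 without TBBD replicate 1 and 368 without TBBD replicate 2.

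Directions that turned belonged to values not past the threshold. With the median over probesets, TBBD minus DMSO was -0.23 for ANKRD1 and 0.069 for YAP1, and replicate 2 minus replicate 1 was -0.20 for CCN1, 0.16 for CCN2 and 0.013 for AXL. The cause was not tested. With 1 array left out, which leaves the numbers unequal between treatments, TBBD minus DMSO ran from -0.79 to 0.79 for ANKRD1, -0.059 to 0.39 for AMOTL2, -0.077 to 0.31 for LATS2, -0.15 to 0.20 for AJUBA, -0.015 to 0.38 for TEAD1, -0.31 to 0.15 for TEAD4 and -0.33 to 0.23 for YAP1. Replicate 2 minus replicate 1 ran from -0.15 to 0.29 for CCN1, -0.28 to 0.16 for CCN2 and -0.083 to 0.010 for AXL. Without 1 array TBBD minus DMSO ran from 0.080 to 0.37 for CCN1 and from 0.13 to 0.37 for CCN2, and replicate 2 minus replicate 1 from -0.47 to -0.16 for AMOTL2 and from -0.37 to -0.11 for LATS2. These fits assume that the lone array of a group varies like the others.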
